A study of Mus musculus with 16 samples.

Results

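Complement genes that macrophages make or use were followed across the 16 arrays of a mouse ovarian tumour model. The 9 genes were C1qa, C1qb and C1qc, the serine protease genes C2 and Cfb, the properdin gene Cfp, and the receptor genes C3ar1, C5ar1 and Vsig4. They were chosen by name, and every probe set annotated with exactly 1 of these symbols was taken, which gave 17 of the 34958 probe sets with a single symbol and 9 of 18194 genes. The choice was made with the differences between the groups on these same arrays already known. Member values are therefore given as descriptions, with standard errors (SE) and 95% intervals but without p-values.

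All cells came from peritoneal lavage of female C57BL/6N mice into whose cavity ID8-luc ovarian cancer cells had been injected and left for 4 weeks. Mice were 8 to 12 weeks old when tamoxifen was given (1 mg, once, by gavage), and the tumour cells followed 3 weeks later. The 4 groups of 4 arrays were tumour-associated macrophages (TAMs) sorted as CCR2+ or as CCR2-, from control mice or from RbpjiΔEC mice, in which, going by the name of the line, Rbpj is deleted inducibly in endothelial cells. Both sorts took CD45+ CD11b+ F4/80+ cells. The protocol describes tamoxifen for the mice in general, so the control mice are taken to have received it too, and they carried tumours like the others. The Cre driver, the genotype of the control mice and the number of animals behind an array are not given in the sources used here. Unless the arrays of a group stand for separate animals, SEs and p-values reflect array-to-array variation that could be technical in origin.

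Complement is a cascade of plasma proteins that marks targets for uptake and recruits immune cells. C1q, built from the A, B and C chains encoded by C1qa, C1qb and C1qc, recognises antibody complexes and dying cells and starts the classical pathway. C2 and factor B, the product of Cfb, supply the catalytic subunits of the classical and alternative C3 convertases, and properdin stabilises the alternative one. C3ar1 and C5ar1 encode the receptors for the small fragments C3a and C5a, while VSIG4 binds C3b and iC3b on resident macrophages. Unlike most complement proteins, which the liver secretes, C1q comes largely from macrophages and dendritic cells.

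In the mouse RefSeq annotation (GRCm38.p6) C1qb, C1qc and C1qa are consecutive genes on chromosome 4, with C1qc in the middle. C2 and Cfb lie on chromosome 17 with only Mir6972 between them, and Cfp and Vsig4 are both on chromosome X. The RefSeq promoter table held 6 of the 9 genes, without C1qa, C2 and Cfb. The 250 bases before the start are shown for the C1q genes in that table, whose products are parts of one protein and whose genotype estimates lay on the same side, and for Vsig4, which had the largest difference between the labels. All 3 lie on the minus strand and are written 5′ to 3′ along the gene, C1qb at chr4:136886201-136886450, C1qc at chr4:136892915-136893164 and Vsig4 at chrX:96293439-96293688. Capitals mark GAGGAA, a core recognised by the macrophage factor PU.1, and TGCTGA, a half-site of MAF factors, on either strand (TTCCTC and TCAGCA when read on the opposite one).
C1qb: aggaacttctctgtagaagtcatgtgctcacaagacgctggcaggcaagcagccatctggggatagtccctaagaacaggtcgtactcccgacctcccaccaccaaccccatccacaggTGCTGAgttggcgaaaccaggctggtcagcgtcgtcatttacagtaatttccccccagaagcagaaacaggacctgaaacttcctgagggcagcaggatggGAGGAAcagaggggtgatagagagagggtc
C1qc: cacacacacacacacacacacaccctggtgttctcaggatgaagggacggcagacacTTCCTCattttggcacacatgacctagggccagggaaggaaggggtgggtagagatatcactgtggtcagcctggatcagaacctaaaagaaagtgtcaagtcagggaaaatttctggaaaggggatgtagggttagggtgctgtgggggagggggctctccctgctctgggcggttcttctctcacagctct
Vsig4: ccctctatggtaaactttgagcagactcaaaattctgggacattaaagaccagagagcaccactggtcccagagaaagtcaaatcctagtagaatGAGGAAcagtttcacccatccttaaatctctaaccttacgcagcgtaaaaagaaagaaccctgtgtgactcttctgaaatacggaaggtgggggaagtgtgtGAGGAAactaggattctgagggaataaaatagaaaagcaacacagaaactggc
The PU.1 core occurred once in C1qb, 30 bases before the start. In C1qc it occurred once, on the opposite strand and 193 bases before the start. In Vsig4 it occurred at 155 and at 53 bases before the start. It was not present in these windows of Cfp, C3ar1 and C5ar1, and 23.3% of the 32851 windows in the table held it. The MAF half-site was found once in C1qb, at 131 bases, once in C3ar1 (144 bases, opposite strand) and once in C5ar1 (17 bases), against 16.1% of all windows. The motifs did not overlap in any of these windows, and they were chosen with the sequences in view. A match describes the letters and is not evidence that a factor binds.

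Values are log2 intensities after quantile normalization over all 16 arrays, so 1 unit is a doubling of the signal, and levels are compared between groups for the same probe set and never between genes. Arrays of a group correlated at 0.969 to 0.991 over all probe sets, those of the same label and other genotype at 0.968 to 0.991, and those of different labels at 0.837 to 0.871. Before normalization the CCR2+ arrays had mean intensities of 821 to 827 and the CCR2- arrays 481 to 762. In the CCR2- columns 100% of the values were fractions with a divisor of at most 22 (tolerance 0.001), against 2.58% to 2.91% in the CCR2+ columns, so the label and a difference in how the columns were made cannot be told apart. The CCR2- arrays also went against their label as macrophages. Mean levels of 8 macrophage markers were 12.34 to 12.48 in the CCR2+ arrays, 8.75 to 9.46 in CCR2- control and 8.64 to 8.88 in CCR2- RbpjiΔEC arrays. Those of 8 B cell markers ran the other way, at 6.93 to 7.22 in the CCR2+ and 12.40 to 12.56 in the CCR2- arrays. None of the macrophage markers had a CCR2- group mean within the range of the bacterial trp controls (6.03 to 6.72), which mouse RNA should not bind, whereas the B cell marker Fcrla did in both CCR2+ groups. The gene for the sorted receptor itself, Ccr2, was lower in the CCR2+ than the CCR2- arrays of control mice, by −1.99 log2 units (SE 0.63, limma adjusted p = 0.0184, groups overlapping), a call lost with array weights and without CCR2+ control replicate 1 or 4 or CCR2- control replicate 1 (adjusted p = 0.0525 to 0.0716). In RbpjiΔEC mice the difference was −1.26 (adjusted p = 0.135), called without CCR2- replicate 1 (adjusted p = 0.0465) and with array weights (−1.58, adjusted p = 0.0258). The other Ccr2 probe sets gave smaller differences of the same sign, −1.63 to −0.92 in control and −1.08 to −0.31 in RbpjiΔEC mice. "CCR2+ arrays" and "CCR2- arrays" therefore name the deposited labels only. In such bulk samples fewer cells of a type and less RNA per cell cannot be told apart.

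All 9 complement genes were higher in the CCR2+ than in the CCR2- arrays of control mice, and 8 of them stood at least 2.47 log2 units apart. Differences ran from 0.73 for C2 to 6.01 for Vsig4, with a median of 3.54 against −0.03 over all genes. All 9 passed an adjusted p of 0.05 in limma, beside 40.8% of all genes in either direction and 19.4% as higher, and for all 9 the arrays of the groups did not overlap, beside 17.9% of all genes as higher. In RbpjiΔEC mice 8 of 9 passed, all but C2, beside 39.1% in either direction and 18.1% as higher, and the same 8 did not overlap, beside 17.4%. The median there was 4.12 against −0.03. Since the choice of genes used these contrasts, nothing is read from the counts. The macrophage and B cell markers differed between the same arrays, and their part in the label differences was not tested. Median centring and the deposited values without normalization turned the share of higher among all called genes from 47.6% to 62.7% and 72.6% in control mice, and from 46.3% to 55.2% and 82.6% in RbpjiΔEC mice.

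**Figure D1:**
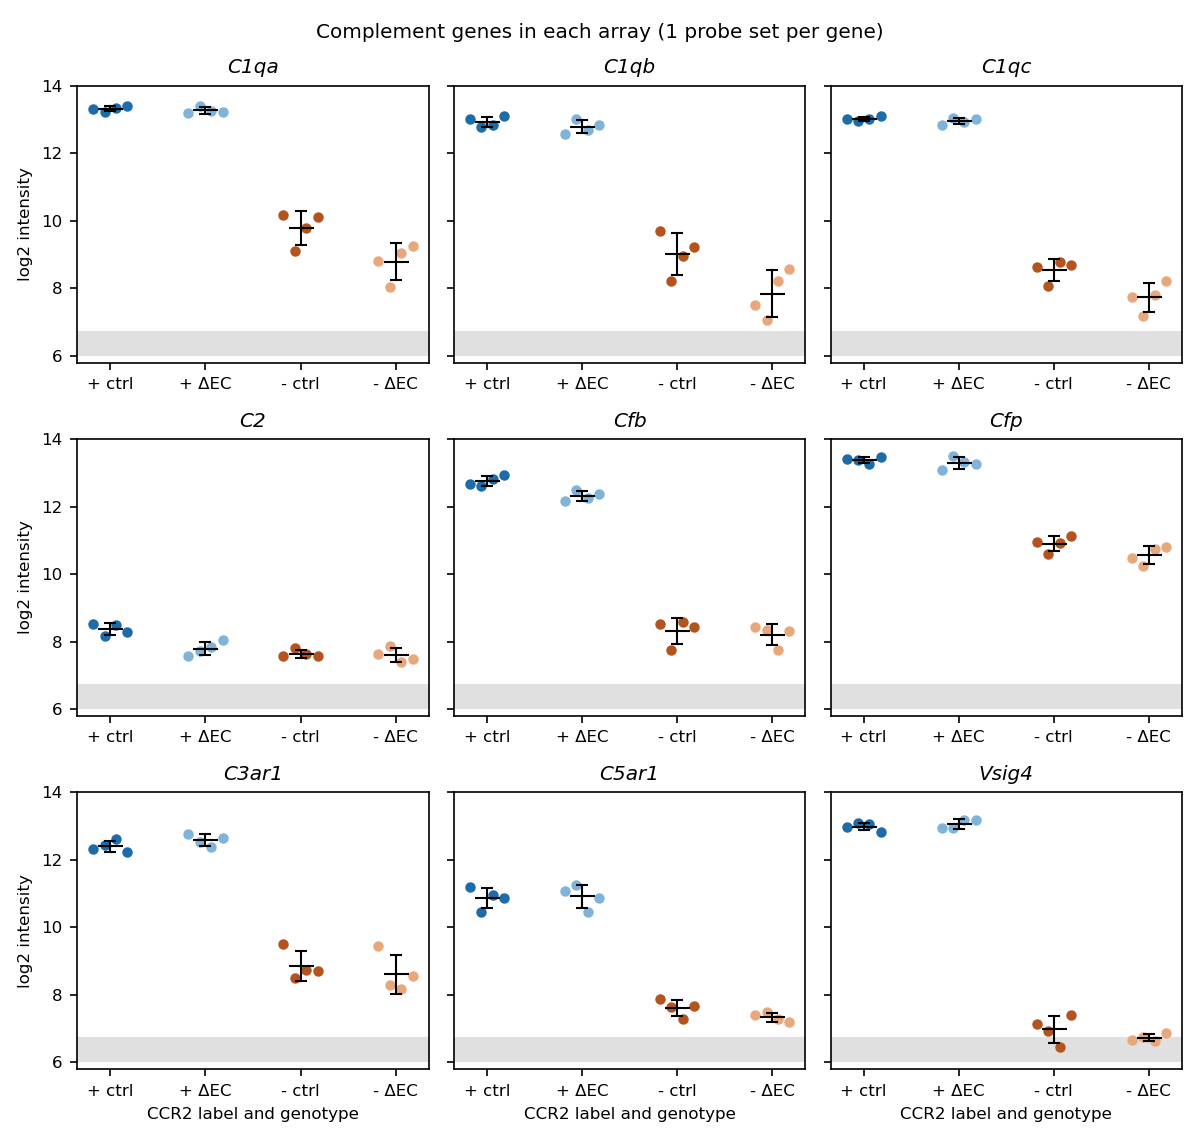
Log2 intensity (y axis, quantile normalized) of 1 probe set for each of the 9 complement genes in every array, by CCR2 label (+ or -) and genotype (ctrl for control, ΔEC for RbpjiΔEC). Points are arrays, long bars the group mean, whiskers 1 SD over 4 arrays, and the grey band the range of the trp controls, 6.03 to 6.72. The CCR2+ arrays lie above all CCR2- arrays for every gene except C2. Among CCR2- arrays the group means of the C1q chains are 8.55 to 9.79 in control and 7.74 to 8.79 in RbpjiΔEC mice.

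The C1q chains varied less among CCR2+ than among CCR2- arrays, with group SDs of 0.06 to 0.20 against 0.32 to 0.69. C1qa (probe set 1417381_at) read 13.31, 13.23, 13.34 and 13.41 in the control and 13.19, 13.41, 13.26 and 13.24 in the RbpjiΔEC arrays labelled CCR2+. In the CCR2- arrays it read 10.18, 9.10, 9.79 and 10.11 in control and 8.80, 8.03, 9.06 and 9.27 in RbpjiΔEC mice. Every CCR2+ array was thus higher than every CCR2- array, and the CCR2- arrays ranged from 8.03 to 10.18. The difference between the labels was 3.53 (SE 0.24), or 11.5-fold, in control mice and 4.48 (SE 0.24), or 22.4-fold, in RbpjiΔEC mice.

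C1qb (1417063_at) read 13.01, 12.77, 12.85 and 13.12 in CCR2+ control arrays and 12.57, 13.03, 12.71 and 12.85 in CCR2+ RbpjiΔEC arrays. Its CCR2- arrays were at 9.70, 8.21, 8.97 and 9.24 in control and at 7.51, 7.05, 8.23 and 8.59 in RbpjiΔEC mice. The labels did not overlap, and C1qb had the widest spread of the 9 genes, with a pooled SD within groups of 0.48 against a median of 0.19 over all genes. The CCR2+ arrays exceeded the CCR2- arrays by 3.91 (SE 0.30) in control and 4.94 (SE 0.30) in RbpjiΔEC mice. The other C1qb probe sets, whose suffix x_at marks probes that may bind related transcripts, differed less, by 2.13 and 2.47 for 1434366_x_at and by 3.33 and 4.14 for 1437726_x_at, in the same direction.

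C1qc (1449401_at) read 13.02, 12.95, 13.01 and 13.10 in the CCR2+ control and 12.84, 13.06, 12.94 and 13.02 in the CCR2+ RbpjiΔEC arrays. In CCR2- arrays it read 8.64, 8.07, 8.79 and 8.69 in control and 7.76, 7.18, 7.80 and 8.23 in RbpjiΔEC mice. The gap between the labels was the widest of the C1q chains, at 4.47 (SE 0.18) or 22.2-fold and 5.22 (SE 0.18) or 37.3-fold. Array by array, the 3 chains lay on the same side of their group mean in 5 of 8 CCR2+ and 6 of 8 CCR2- arrays, and replicate 2 was the lowest of its group for all 3 chains in both CCR2- groups. Their mean over the chains was 12.87 to 13.21 in the CCR2+ arrays, 8.46 to 9.51 in CCR2- control arrays and 7.42 to 8.70 in CCR2- RbpjiΔEC arrays.

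The convertase genes C2 and Cfb, neighbours on chromosome 17, had label differences of very unlike size. C2 (1441912_x_at) read 8.53, 8.16, 8.49 and 8.30 in CCR2+ control, 7.57, 7.73, 7.83 and 8.05 in CCR2+ RbpjiΔEC, 7.56, 7.80, 7.62 and 7.56 in CCR2- control, and 7.64, 7.87, 7.41 and 7.48 in CCR2- RbpjiΔEC arrays. Only the CCR2+ control arrays stood apart. The label difference was 0.73 (SE 0.12) in control mice and 0.19 (SE 0.12, interval −0.07 to 0.46) in RbpjiΔEC mice, where the groups overlapped. The other C2 probe sets gave 1.21 and 0.42 (1457664_x_at) and 1.02 and 0.33 (1416051_at), and the set that stands for C2 carries the x_at suffix as well. On the deposited values without normalization the RbpjiΔEC difference of C2 was 0.47 and passed the threshold, with the median of all genes at 0.23. Cfb (1417314_at) read 12.68, 12.62, 12.83 and 12.94 in CCR2+ control and 12.17, 12.50, 12.25 and 12.37 in CCR2+ RbpjiΔEC arrays. Its CCR2- arrays lay between 7.75 and 8.58 in both genotypes, well below. That made Cfb 21.8-fold higher in the CCR2+ arrays of control mice (4.45, SE 0.17) and 17.4-fold higher in those of RbpjiΔEC mice (4.12, SE 0.17).

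Cfp had the smallest label difference after C2. Probe set 1452279_at read 13.40, 13.37, 13.26 and 13.48 in CCR2+ control and 13.08, 13.49, 13.33 and 13.26 in CCR2+ RbpjiΔEC arrays. In CCR2- arrays it read 10.95, 10.60, 10.92 and 11.14 in control and 10.48, 10.24, 10.74 and 10.82 in RbpjiΔEC mice. The labels were separate, by 2.47 (SE 0.13) or 5.55-fold and by 2.72 (SE 0.13) or 6.58-fold. The other Cfp probe set, 1447537_at, read 7.54 to 8.05 in all groups and differed by 0.13 (interval −0.10 to 0.35) and 0.11 (interval −0.11 to 0.34), so the gene's probe sets disagreed about its difference between the labels.

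The receptor genes included the widest gap of all. Vsig4 (1451651_at) read 12.97, 13.09, 13.05 and 12.84 in CCR2+ control and 12.94, 12.94, 13.19 and 13.18 in CCR2+ RbpjiΔEC arrays. In CCR2- arrays it read 7.13, 6.92, 6.46 and 7.40 in control and 6.66, 6.76, 6.64 and 6.87 in RbpjiΔEC mice. The labels did not overlap. The measured differences were 6.01 (SE 0.15), or 64.4-fold, in control and 6.33 (SE 0.15), or 80.5-fold, in RbpjiΔEC mice. The CCR2- values lie at or near the trp controls, so these sizes depend on the background level of the arrays.

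C3ar1 (1419483_at), the C3a receptor, read 12.32, 12.43, 12.63 and 12.23 in CCR2+ control and 12.78, 12.54, 12.38 and 12.65 in CCR2+ RbpjiΔEC arrays. Its CCR2- arrays were at 9.51, 8.50, 8.75 and 8.70 in control and at 9.45, 8.28, 8.17 and 8.55 in RbpjiΔEC mice, with replicate 1 the highest in both. The label differences were 3.54 (SE 0.24) and 3.97 (SE 0.24), and the other probe sets gave larger ones, 4.85 and 5.53 for 1419482_at and 4.24 and 4.64 for 1442082_at. C5ar1 (1422190_at), the C5a receptor, read 11.20, 10.46, 10.95 and 10.86 in CCR2+ control and 11.09, 11.26, 10.45 and 10.88 in CCR2+ RbpjiΔEC arrays, against 7.19 to 7.87 in the CCR2- arrays. Neither receptor overlapped between the labels. C5ar1 differed by 3.25 (SE 0.18) in control and 3.58 (SE 0.18) in RbpjiΔEC mice, and its other probe set, 1439902_at, by 4.03 and 4.40.

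**Figure D2:**
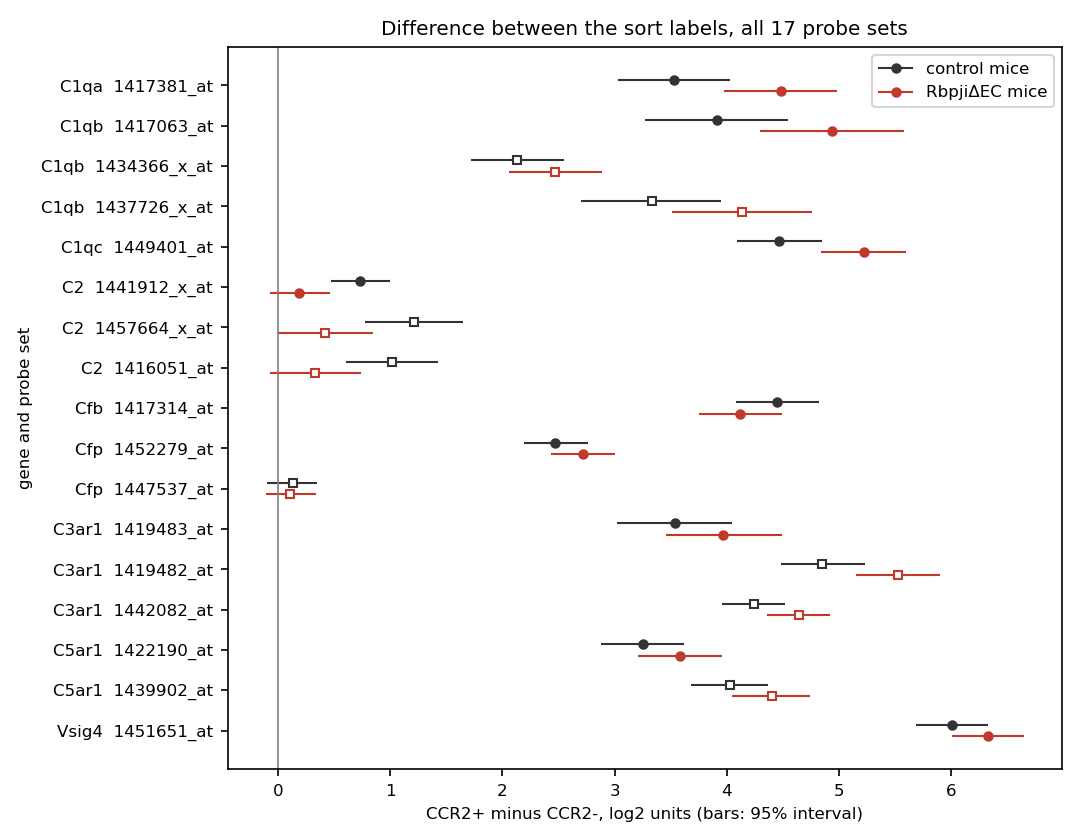
Difference between the sort labels (x axis, CCR2+ minus CCR2-, log2 units) for all 17 probe sets of the 9 complement genes, in control mice (black) and RbpjiΔEC mice (red). Filled circles mark the probe set that stands for the gene, open squares its other probe sets, and bars the 95% interval from limma. All 17 estimates are positive in both genotypes, from 0.13 to 6.01 in control and from 0.11 to 6.33 in RbpjiΔEC mice.

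The genotype comparison within a label asks whether losing Rbpj from endothelial cells goes with a difference in the cells sorted under that label, which in the CCR2- arrays went against that label as macrophages by their markers. In the CCR2- arrays all 9 complement genes had lower estimates in RbpjiΔEC mice, beside 50.9% of all genes, with a median of −0.28 against −0.002 over all genes. None of the 9 passed the limma threshold, beside 0% of all genes in either direction. An unadjusted p under 0.05 was found for 390 of 18194 genes, a smaller share than the 0.05 that chance gives on average. None of the 9 had arrays that did not overlap, beside 0.758% of all genes as lower. Nothing is read from these counts either, since the choice of genes used this contrast and the other genotype contrasts. The C1q chains had the largest differences. C1qb differed by −1.18 (SE 0.30, interval −1.83 to −0.54), 2.27-fold, C1qa by −1.0 (SE 0.24, interval −1.50 to −0.50), 2.01-fold, and C1qc by −0.80 (SE 0.18, interval −1.19 to −0.42), 1.75-fold. These SEs and intervals share their spread with the CCR2+ arrays, where the C1q chains varied less. They are too narrow for the CCR2- arrays alone.

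These 3 estimates had ranks 3, 12 and 16 from the most negative of 18194 genes, a rank known when the genes were chosen. The groups overlapped in every case through replicate 2 of the controls. C1qa there read 9.10, below the 9.27 of RbpjiΔEC replicate 4. C1qb read 8.21, below RbpjiΔEC replicates 3 and 4, and C1qc read 8.07, below replicate 4. Without that control array the differences of C1qa, C1qb and C1qc were −1.24, −1.46 and −0.96. Without RbpjiΔEC replicate 2, the lowest of its group, they were −0.75, −0.92 and −0.62. The other C1qb probe sets gave −0.45 (1434366_x_at) and −0.97 (1437726_x_at).

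The remaining genes differed less between the genotypes in the CCR2- arrays. Cfp differed by −0.33 (SE 0.13, interval −0.62 to −0.05), and C5ar1 by −0.28, C3ar1 by −0.26, Vsig4 by −0.24, Cfb by −0.11 and C2 by −0.04, with intervals that included 0. Cfp varied less in the CCR2+ arrays (group SDs 0.09 and 0.17) than in the CCR2- arrays (0.22 and 0.26). Its interval, from the shared spread, is therefore too narrow for the CCR2- arrays alone. The second C5ar1 probe set, 1439902_at, differed by −0.44 without overlap, at levels of 6.48 to 7.27 near the trp controls. Of all 17 probe sets 16 had negative estimates. C2 turned to between 0.01 and 0.03 with its probe set 1457664_x_at or without control replicate 2 or RbpjiΔEC replicate 3 or 4, and Cfb to 0.04 without RbpjiΔEC replicate 3. All 8 general macrophage markers had negative estimates in the same comparison, from −0.68 for Csf1r and Lyz2 to −0.13 for Adgre1, with a median of −0.27 and none called, beside 0% of all genes. The 9 markers of large peritoneal macrophages were divided, with 3 positive and 6 negative estimates from −0.35 to 0.03 and a median of −0.03. Of 4 monocyte markers 3 were negative, with a median of −0.84 and array means of 9.26 to 10.19 in control and 8.51 to 9.55 in RbpjiΔEC mice. The 8 B cell markers had a median of 0.02. The median over 7 neutrophil markers was −0.99, with array means of 6.89 to 8.99 in control and 6.95 to 7.10 in RbpjiΔEC mice. The part of these markers in the C1q differences was not tested.

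In the CCR2+ arrays C2 and Cfb had the largest differences. C2 was at 8.16 to 8.53 in control and at 7.57 to 8.05 in RbpjiΔEC arrays, a difference of −0.58 (SE 0.12, interval −0.84 to −0.31). Cfb was at 12.62 to 12.94 and at 12.17 to 12.50, a difference of −0.44 (SE 0.17, interval −0.81 to −0.07). These 2 of 9 genes had arrays that did not overlap, beside 1.3% of all genes as lower, and none of the 9 passed the threshold, beside 0% of all genes in either direction. An unadjusted p under 0.05 was found for 830 of 18194 genes, again a smaller share than the 0.05 that chance gives on average. The other C2 probe sets gave −0.78 (1457664_x_at, overlapping) and −0.73 (1416051_at, not overlapping).

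The C1q chains of the CCR2+ arrays differed by −0.05 (C1qa, interval −0.55 to 0.45), −0.15 (C1qb, interval −0.80 to 0.49) and −0.05 (C1qc, interval −0.43 to 0.33). These intervals share their spread with the CCR2- arrays, where the C1q chains varied more, and are too wide for the CCR2+ arrays alone. Cfp differed by −0.09, C3ar1 by 0.18, C5ar1 by 0.06 and Vsig4 by 0.08. In all, 6 of 9 estimates were negative, beside 52.5% of all genes. With median centring 1 of 9 was positive in place of 3, and C5ar1 changed sign in 6 settings, to between −0.08 and −0.01. The general macrophage markers had a median of 0.01 in this comparison, with 4 positive and 3 negative estimates and the other, Cd14, at 0 after rounding, and the large peritoneal macrophage markers a median of −0.06. Markers of other cell types were divided. All 10 mesothelial and fibroblast markers had negative estimates (median −0.38), with array means of 7.21 to 7.78 in control and 6.95 to 7.54 in RbpjiΔEC arrays, and so did all 7 neutrophil markers (median −0.31), with array means of 7.64 to 8.73 and 7.52 to 7.64. Medians were −0.14 for tumour cell, −0.03 for B cell and 0.02 for dendritic cell markers. They were 0.07 for T and NK cell, 0.07 for endothelial and 0.29 for monocyte markers. None of these markers was called, and their part in the differences of C2 and Cfb was not tested.

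**Figure D3:**
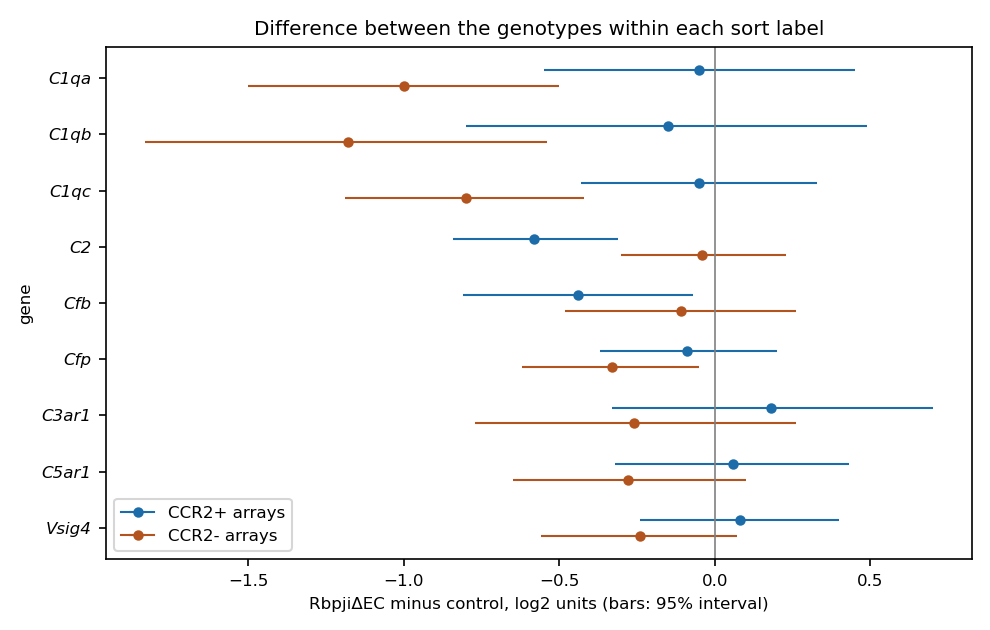
Difference between the genotypes (x axis, RbpjiΔEC minus control, log2 units) for the 9 complement genes within the CCR2+ arrays (blue) and the CCR2- arrays (orange). Points are limma estimates for 1 probe set per gene and bars 95% intervals, which use 1 spread per gene over all 4 groups. In the CCR2- arrays the C1q chains lie furthest left, between −1.18 and −0.80, and in the CCR2+ arrays C2 and Cfb do, at −0.58 and −0.44.

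The interaction, the genotype difference in CCR2+ arrays minus that in CCR2- arrays, compares the genotype differences between the labels. It was 1.03 (SE 0.43, interval 0.12 to 1.94) for C1qb, 0.96 (SE 0.33, interval 0.25 to 1.66) for C1qa and 0.75 (SE 0.25, interval 0.21 to 1.29) for C1qc. C2 had the opposite sign, at −0.54 (SE 0.17, interval −0.91 to −0.17), and so did Cfb, at −0.33. The receptors lay at 0.44 for C3ar1, 0.33 for C5ar1 and 0.32 for Vsig4, with Cfp at 0.24. None of the 9 passed the threshold, beside 0% of all genes. Of 18194 genes 555 had an unadjusted p under 0.05, a smaller share than the 0.05 that chance gives on average. The 5 comparisons share arrays, so their values are not independent of one another.

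Other complement genes did not share a common direction between the labels. Of 41 such genes 32 were measured. In these, limma with adjustment over all genes called 8 as higher and 6 as lower for CCR2+ in control mice, beside 19.4% and 21.4% of all genes, and 18 did not pass. In RbpjiΔEC mice 8 were higher and 5 lower, beside 18.1% and 21% of all genes. These shares are near those of all genes. The medians were 0.01 and −0.05, close to those of all genes. None was called in a genotype comparison or the interaction, where 0% of all genes were. The other 9 were not analysed here.

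Among recognition proteins and the proteases beside them, 2 of 9 were called, both higher in both genotypes, beside 40.8% of all genes called in control and 39.1% in RbpjiΔEC mice. Fcna encodes ficolin A, a lectin pathway recognition protein of macrophages. It was at 13.46 to 13.50 in CCR2+ control and 7.82 to 8.94 in CCR2- control arrays, a difference of 5.10 (SE 0.19, limma adjusted p = 1.32e-12), and differed by 5.65 in RbpjiΔEC mice (adjusted p = 3.45e-13). Its genotype difference in the CCR2- arrays was −0.66 (SE 0.19), on the side of the C1q chains but not called (adjusted p = 1). C1ra, the C1r protease that C1q activates, differed by 2.72 (SE 0.17, limma adjusted p = 1.27e-09) and 2.16 (adjusted p = 2.34e-08), while C1s1, its partner protease, differed by 0.04 in control mice and was not called.

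Of 6 terminal components, which build the membrane attack complex, C8g was higher in both genotypes (0.55, limma adjusted p = 2e-05, and 0.38, adjusted p = 0.000741). C8b was lower in control mice (−0.36, limma adjusted p = 0.0309), a call lost in 7 settings, among them median centring (adjusted p = 0.0689) and the omission of CCR2+ control replicate 1 or 4 or CCR2- control replicate 1 or 3 (adjusted p = 0.0725 to 0.115). Of 11 regulators 4 were called in each genotype, a share near the 40.8% and 39.1% of all genes. The decay-accelerating factor genes Cd55 (−1.22 and −0.99, limma adjusted p = 8.07e-05 and 0.000637) and Cd55b were called as lower in the CCR2+ arrays, although on the deposited values Cd55 was not called in RbpjiΔEC mice (−0.34, adjusted p = 0.268). The CCR2+ levels of Cd55b, 6.13 and 6.20, lie within the range of the trp controls and its CCR2- levels, 6.79 in both genotypes, just above it, so no size is given for its difference. Cr1l, or Crry, a rodent membrane regulator, was higher (0.64 and 0.67, limma adjusted p = 0.000421 and 0.000311), but its other probe sets gave −0.64 and 0.09 in control mice and their mean was not called (adjusted p = 0.89). Serping1, the C1 inhibitor, was higher in control mice (0.66, limma adjusted p = 0.00341) and stood at 0.28 in RbpjiΔEC mice (adjusted p = 0.188, or 0.0354 without CCR2+ RbpjiΔEC replicate 2). Vtn was called as higher in RbpjiΔEC mice (0.48, limma adjusted p = 0.039) and not in control mice (−0.02), with the difference between them not called, and its other probe set gave −0.25. That call was lost without CCR2+ RbpjiΔEC replicate 2 or 3 or CCR2- RbpjiΔEC replicate 1, 3 or 4 (adjusted p = 0.0717 to 0.118). It was also lost with median centring (limma adjusted p = 0.18) and with the mean of its probe sets (adjusted p = 0.526). The CCR2- RbpjiΔEC level of Vtn, 6.52, lies within the range of the trp controls, so the size of its difference depends on the background level.

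All 6 other receptors were called, 3 in each direction, in both genotypes, beside 40.8% and 39.1% of all genes in either direction. Cd93, first described as a receptor for C1q, was higher by 4.73 (SE 0.18, limma adjusted p = 2.29e-12) and 5.24 (adjusted p = 5.72e-13), although 1 of its 5 probe sets gave −0.18 and −0.15. Itgam and Itgb2 encode the chains of complement receptor CR3. Itgam, whose product CD11b was part of the sort, was higher by 3.25 (SE 0.08, limma adjusted p = 6.33e-15) and 3.40, and Itgb2 by 1.71 (SE 0.17, adjusted p = 3.77e-07) and 1.58. Cr2, the complement receptor of B cells, differed by −2.72 (SE 0.23, limma adjusted p = 4.71e-08) and −2.94, and Itgax, the α chain of CR4, by −2.56 (SE 0.31, adjusted p = 3.17e-06) and −2.38. C1qbp differed by −0.61 and −0.55 (limma adjusted p = 0.000279 and 0.000753). That call was lost with median centring (−0.06 and −0.17), and on the deposited values it stood at −0.01 and turned to 0.12 in RbpjiΔEC mice.

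**Figure D4:**
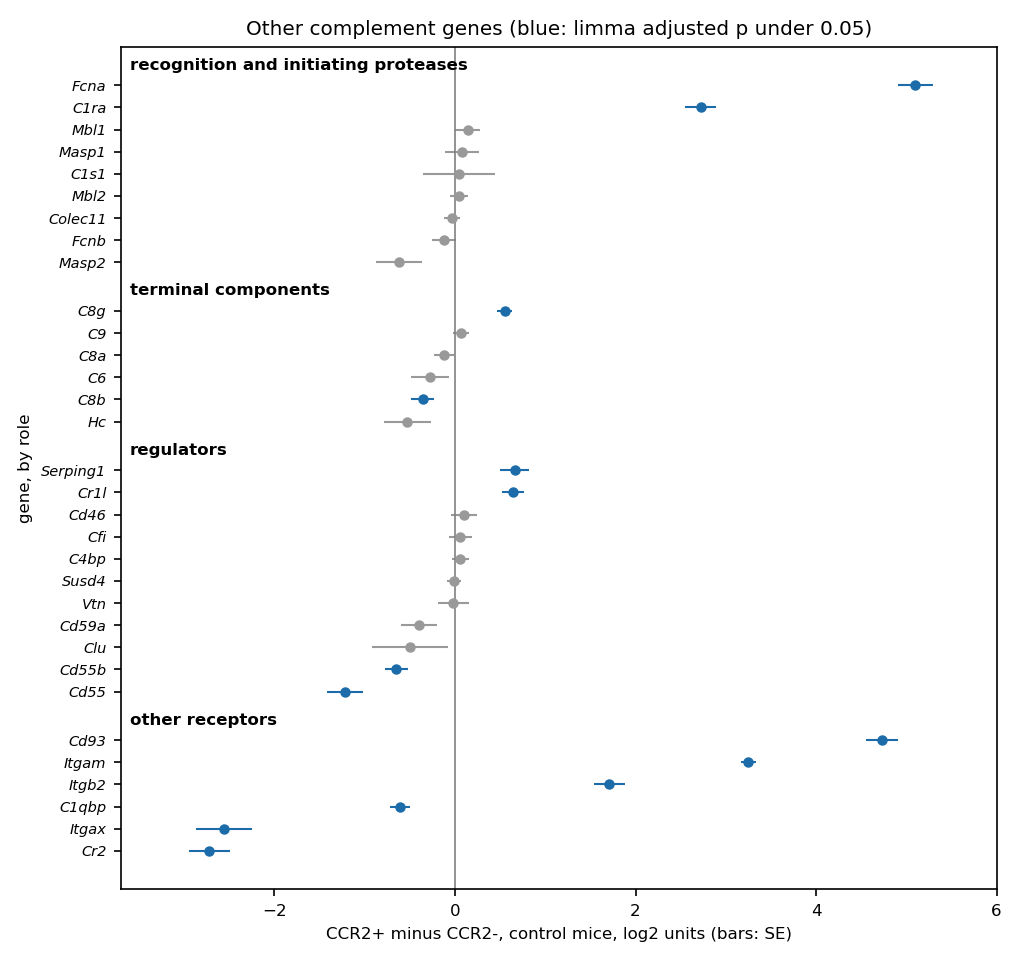
Difference between the sort labels in control mice (x axis, CCR2+ minus CCR2-, log2 units) for 32 other complement genes, grouped by role. Points are limma estimates, bars 1 SE, and blue marks an adjusted p under 0.05, grey the rest. Fcna and Cd93 lie furthest right, at 5.10 and 4.73, and Cr2 furthest left, at −2.72.

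Factors known to act on C1q genes differed between the labels too. The values of 4 such factors follow. Maf was higher under the CCR2+ label, by 3.89 (SE 0.22, limma adjusted p = 3.35e-10) in control and 4.36 (adjusted p = 7.64e-11) in RbpjiΔEC mice, with other probe sets between 0.29 and 2.75 in control mice. Spi1, which encodes PU.1, was higher by 0.94 (limma adjusted p = 0.000239) and 0.59 (adjusted p = 0.00958), and Nr1h3, which encodes the liver X receptor LXRα, by 0.87 (adjusted p = 1.84e-05) and 0.74 (adjusted p = 9.85e-05). Irf8 was lower, at −1.06 (limma adjusted p = 0.0185) and −0.96 (adjusted p = 0.0336), calls that median centring ended (adjusted p = 0.108 and 0.124). In control mice so did leaving out CCR2+ replicate 2 or 4 or CCR2- replicate 3 or 4 (adjusted p = 0.0535 to 0.0601), and in RbpjiΔEC mice CCR2+ replicate 3 or 4 or CCR2- replicate 1, 3 or 4 (adjusted p = 0.0661 to 0.109). Between the genotypes in CCR2- arrays Maf differed by −0.18, Spi1 by 0.02, Nr1h3 by 0.01 and Irf8 by −0.08, and none was called. Rbpj itself, deleted in endothelial cells, differed by 0.07 (SE 0.15) in CCR2+ and −0.09 (SE 0.15) in CCR2- arrays between the genotypes, so it does not check the genotype in these sorted cells. Of the sort genes, Adgre1, which encodes F4/80, was higher under the CCR2+ label by 4.04 and 4.16 (limma adjusted p = 1.86e-13 and 1.29e-13). Ptprc, which encodes CD45, differed by −0.34 and 0.12 and was not called (limma adjusted p = 0.0846 and 0.576), although without CCR2+ control replicate 3 or CCR2- control replicate 4 it was in control mice (adjusted p = 0.0297 and 0.0272). Its other probe set gave −1.83 and −1.38, and the mean of its probe sets was called as lower in both genotypes (−1.09 and −0.63, limma adjusted p = 5.8e-07 and 0.000225), while the deposited values called it as higher in RbpjiΔEC mice (0.69, adjusted p = 0.00461), so no direction is given for Ptprc.

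The genes whose pattern over the 16 arrays lay nearest to the mean of the C1q chains were found by the root mean square (RMS) distance after each gene was centred on its own mean. Genes were not scaled, so this distance depends largely on how close a gene's label difference is in size to that of the C1q chains. Nearest outside the 9 were Fcgr3, an Fcγ receptor (0.304 log2 units), Plxdc2 (0.314), the mitochondrial sulfide oxidase gene Sqor (0.319), Timd4, a phosphatidylserine receptor of resident macrophages (0.320), and Hacd4 (0.321), against a median of 2.283 over all genes. Between the labels of control mice they differed by 3.98 to 4.53. Between the genotypes in CCR2- arrays Fcgr3 differed by −0.56, Sqor by −0.45, Hacd4 by −0.42, Plxdc2 by −0.32 and Timd4 by −0.31. By the same distance Cfb was at 0.471, C3ar1 at 0.593, C5ar1 at 0.695, Cfp at 0.963, Vsig4 at 0.975 and C2 at 2.061, so C2 was the member least like the C1q chains.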

How the data were processed

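RNA of sorted cells (PicoPure kit, per the labels' protocols) was measured on 16 Affymetrix mouse arrays. The authors deposited 1 linear intensity per probe set, and their background correction and normalization are not given in the sources used here. The values were log2 transformed and quantile normalized over all arrays in limma 3.58.1 (R 4.3.3). Symbols came from the platform annotation, in which 34958 of 45101 probe sets carried 1 symbol, 932 several and 9211 none. Of the probe sets with 1 symbol, 34754 matched the RefSeq gene table by identifier, and 0 symbols changed. Each gene was represented by its brightest probe set on average, with no intensity filter. Differences were fitted in limma (two-sided, 1 mean for each of 4 groups, 1 spread per gene), and p-values were adjusted by Benjamini-Hochberg over 18194 genes with a threshold of 0.05 (a gene below it is "called"). The method was tested on simulated data.

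The members, lists, motifs and comparisons were chosen with earlier results of these data known, so nothing here is independent support for them. Named outside the members were up to 4 called genes per complement list with the largest differences, all factors and sort genes, and the 5 genes nearest to C1q over the arrays. Itgb2, C1qbp, C1s1, Csf1r, Lyz2 and Fcrla were named after their values were seen. Whether replicate numbers pair the samples was checked on deviations from group means. Between the labels of 1 genotype, where arrays could share animals, same-number arrays correlated at −0.032 to 0.403 in control and 0.041 to 0.241 in RbpjiΔEC mice. These values do not settle whether the samples are paired. The labels do not state a pairing, so the numbers were not taken as pairs, and a pairing that exists is ignored here. Alternatives were median centring, no normalization, normalization within a label, all probe sets, a filter on dim genes, other variance models, array weights, a replicate block and leaving out each array. Scan or hybridization dates are not given in the sources used here, so no batch was examined. Precision is limited by having 4 arrays a group.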

Additional observations from a re-analysis of the deposited data

Results flagged for a closer look

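Of 68 groups of 4 arrays formed by the 17 probe sets, 2 held an array far from the other 3 by Dixon's ratio, where chance gives about 1 in 20. For C2 (probe set 1416051_at) RbpjiΔEC replicate 2 of the CCR2- arrays read 7.66, with the other 3 between 6.96 and 7.0. The probe set that stands for C2 read 7.87 in that array, also the highest of its group. For C3ar1 (probe set 1442082_at) control replicate 4 of the CCR2+ arrays read 11.34, with the other 3 between 11.59 and 11.62. The probe set that stands for C3ar1 read 12.23 in that array, again the lowest of its group.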

How the results depend on the processing

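Between the labels the count of called members stayed at 9 in control mice and at 8 or 9 in RbpjiΔEC mice under every alternative run. No member was called in a genotype comparison or the interaction under any of them. Of 234 counts under alternatives 225 stayed within 1.5 times the main count and 9 moved, all of them counts over all genes. RbpjiΔEC against control in CCR2+ arrays called 0 genes as reported, 2 with the mean of all probe sets, 1 above the lowest tercile of intensity, 1 with array weights, and 0 to 2 when single arrays were left out (1 without control replicate 2 or RbpjiΔEC replicate 3, 2 without RbpjiΔEC replicate 2). In the CCR2- arrays leaving out single arrays gave 0 to 1 (1 without control replicate 2 or RbpjiΔEC replicate 4). With the replicate block the CCR2+ genotype comparison called 1 gene, and the block changed no member call, while Irf8 was no longer called between the labels in RbpjiΔEC mice (adjusted p = 0.0566). The block gave arrays of the same number a common effect across all groups, although control and RbpjiΔEC arrays cannot share animals. It therefore cannot check a pairing of the labels within a genotype. Arrays correlated best with their own number in 11 of 24 cases over all pairs of groups, which include pairs of different genotypes that cannot share animals. Between the labels of each genotype they did so in 3 of 4, a hint of pairing from the data and not from the design. Of 1093 member differences under alternatives 49 moved by more than 1 pooled SD and 0 called ones changed sign. Without normalization the median of all genes shifted to 0.23 between the labels in RbpjiΔEC mice, to −0.16 between the genotypes in CCR2- arrays and to 0.16 in the interaction. The cause of these shifts was not tested. Quantile normalization was used across labels whose deposited columns differ in kind, so label differences carry that limit.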
